A study of Homo sapiens with 16 samples.

Results

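The genes examined here encode 10 transcription factors linked to the epithelial-mesenchymal transition (EMT), the switch in which epithelial cells loosen their junctions and take on a migratory, mesenchymal character: SNAI1, SNAI2, ZEB1, ZEB2, TWIST1, TWIST2, PRRX1, FOXC2, TCF3 and TCF4. Each gene was represented by a fixed window of the human genome (build hg19), between 50 and 450 kb wide, and all LSD1 islands were taken that share at least 1 bp with the window. An island is a stretch in which a peak caller found more reads after chromatin immunoprecipitation (ChIP) with an LSD1 antibody than in the Input chromatin. The windows held 70 islands of 85586 in all. The islands came from 4 HEK-based cell lines, derived from human embryonic kidney cells, with 2 independently grown cultures each, so that 8 lists of islands were available. As general knowledge of these lines has it, Epi-CTR serves as control, while Epi-HOT makes the long non-coding RNA HOTAIR. Epi-HOTΔP makes a HOTAIR that lacks the stretch bound by the methyltransferase complex PRC2, and in Epi-HOTΔL the stretch bound by LSD1 is missing. The labels give only the names, with the Δ spelled out as delta in angle brackets. They name no treatment, do not say what drives HOTAIR, and do not say whether a line is 1 clone. Cell identity could not be checked, because the lists hold no expression.

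LSD1 (KDM1A) removes methyl groups from histone H3 and works mostly in repressor complexes with CoREST and histone deacetylases. SNAI1 and SNAI2 are known to draw LSD1 to the promoters they silence through their N-terminal SNAG domain, which resembles the tail of histone H3, and ZEB1 meets LSD1 in the CtBP complex. The SNAI, ZEB, TWIST and E proteins (TCF3, TCF4) bind short DNA motifs called E-boxes, of which CAGGTG is the form preferred by the SNAI and ZEB proteins.

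Most of the LSD1 islands lay in 3 of the windows. SNAI1 and TCF3 had an island in 6 of the 8 libraries and FOXC2 in 5, and together these windows held 48 of the 70 islands. TWIST2 had an island in 4 libraries, TWIST1 in 3, ZEB1, PRRX1 and TCF4 in 2, and SNAI2 and ZEB2 in 1. The median window had an island in 2.5 libraries. Wide windows meet islands more easily, so each was set beside all consecutive stretches (tiles) of its own width along the genome that held an island in any library. Medians over these tiles ran from 2 libraries for 50 kb to 5 for 450 kb. SNAI1, TWIST1, TWIST2, FOXC2 and TCF3 lay above the median of their width and the other 5 windows below it. As many libraries or more had an island in 16.3% of tiles for FOXC2, but in 49.5% for TWIST1 and 49% for TWIST2, which thus lay near the middle of their tiles. Among tiles of chromosome 16 alone, the share for FOXC2 was 26.4%.

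**Figure D1:**
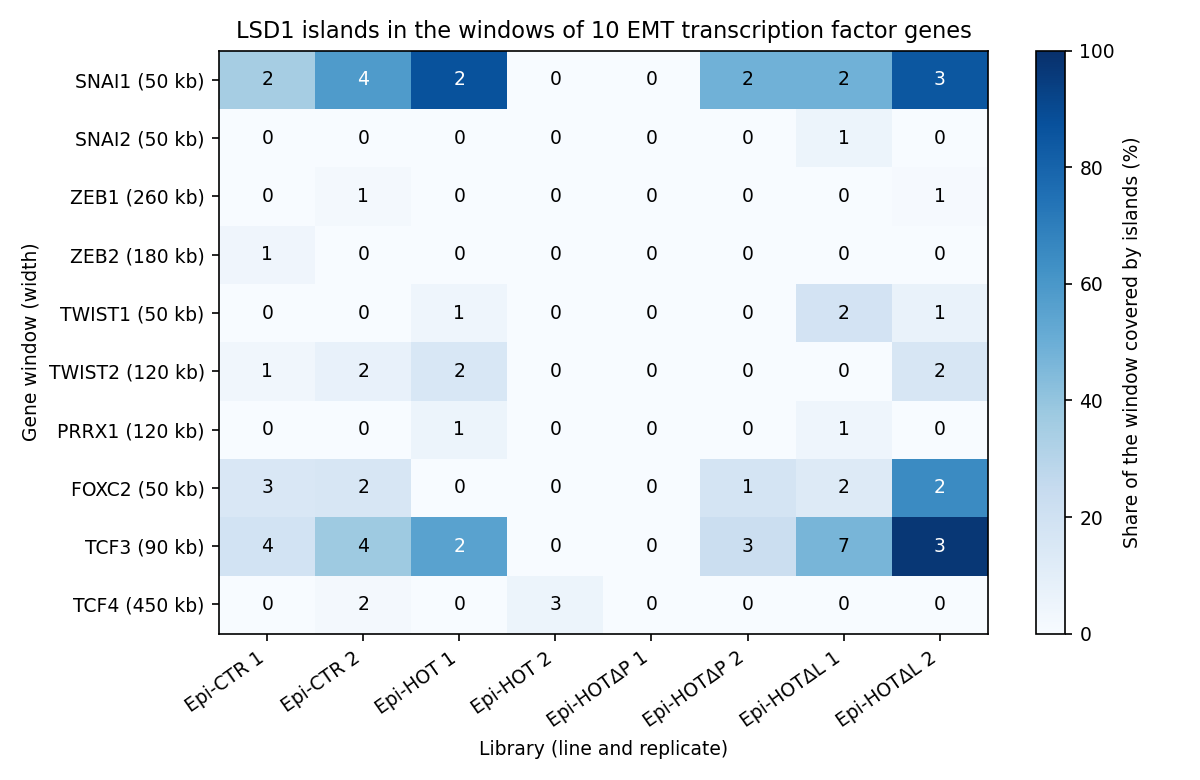
LSD1 islands in each gene window (rows, with the window's width) and library (columns, line and replicate); the colour gives the share of the window covered by islands in percent and the number printed is the count of islands. SNAI1, TCF3 and FOXC2 were covered in most libraries, Epi-HOTΔP replicate 1 had no island in any window, and Epi-HOT replicate 2 had islands at TCF4 only.

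The bases before the start are shown for all 6 of the genes with a RefSeq promoter entry, so that the sequence can be read beside the island counts; of several entries the first listed is given. Each line gives the 250 bases upstream of the start from RefSeq (build GRCh38.p14, positions of that build, not comparable with the hg19 positions below), 5′ to 3′ along the gene, with CG dinucleotides in capitals.
TCF3, chr19:1652616-1652865, minus strand: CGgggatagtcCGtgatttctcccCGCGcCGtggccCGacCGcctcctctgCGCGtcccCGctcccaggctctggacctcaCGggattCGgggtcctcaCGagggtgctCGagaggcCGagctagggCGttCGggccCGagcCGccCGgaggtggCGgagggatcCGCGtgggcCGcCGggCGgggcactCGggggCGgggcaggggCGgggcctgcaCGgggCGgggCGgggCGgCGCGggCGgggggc
TWIST2, chr2:238847835-238848084, plus strand: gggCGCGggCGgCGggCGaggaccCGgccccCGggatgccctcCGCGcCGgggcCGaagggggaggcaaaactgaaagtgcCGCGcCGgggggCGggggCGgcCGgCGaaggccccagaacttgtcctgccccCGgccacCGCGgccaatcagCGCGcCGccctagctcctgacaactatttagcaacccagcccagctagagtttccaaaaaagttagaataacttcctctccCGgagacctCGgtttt
ZEB1, chr10:31318167-31318416, plus strand: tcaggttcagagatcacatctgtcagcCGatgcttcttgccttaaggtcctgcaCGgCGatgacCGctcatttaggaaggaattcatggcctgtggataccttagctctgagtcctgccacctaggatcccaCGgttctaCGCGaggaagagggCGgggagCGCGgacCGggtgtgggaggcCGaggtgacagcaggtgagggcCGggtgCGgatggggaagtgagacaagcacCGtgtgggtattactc
ZEB2, chr2:144520120-144520369, minus strand: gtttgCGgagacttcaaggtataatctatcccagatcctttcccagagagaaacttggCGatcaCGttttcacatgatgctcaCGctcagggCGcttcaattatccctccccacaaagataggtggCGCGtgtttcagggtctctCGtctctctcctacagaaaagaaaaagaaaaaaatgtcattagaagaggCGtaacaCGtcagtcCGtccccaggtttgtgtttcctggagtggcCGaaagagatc
PRRX1, chr1:170663881-170664130, plus strand: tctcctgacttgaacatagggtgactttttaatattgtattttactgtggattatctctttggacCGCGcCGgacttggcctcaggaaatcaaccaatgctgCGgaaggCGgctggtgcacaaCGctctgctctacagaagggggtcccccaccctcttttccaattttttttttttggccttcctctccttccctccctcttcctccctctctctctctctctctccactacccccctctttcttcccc
TCF4, chr18:55635958-55636207, minus strand: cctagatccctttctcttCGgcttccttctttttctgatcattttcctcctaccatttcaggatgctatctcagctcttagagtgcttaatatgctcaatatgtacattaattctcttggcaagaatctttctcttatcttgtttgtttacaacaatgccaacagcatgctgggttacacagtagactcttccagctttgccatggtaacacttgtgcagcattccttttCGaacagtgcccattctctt

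The upstream stretch of TCF3, with islands in 6 libraries, held 36 CG dinucleotides and 79.6% G and C, and 4.85% of the 35116 promoter entries of this length held as many. TWIST2, with islands in 4 libraries, had 26 CG (19.6% of entries held as many) and 68.4% G and C. ZEB1, with islands in 2 libraries, had 15 CG and 59.2% G and C, and ZEB2, with an island in 1, had 12 and 48.0%. PRRX1 and TCF4, with islands in 2 libraries, had fewer CG than ZEB2, 6 and 2, with 50.8% and 40.8% G and C. The median entry had 11 CG and 58.0% G and C, and 93.9% of entries held at least 1 CG. In the entries shown, TCF3 and TWIST2 thus had the most CG, and of the 6 genes they had islands in the most libraries. Among ZEB1, ZEB2, PRRX1 and TCF4 the CG counts did not follow the number of libraries. A relation was not tested, and the entries of one gene differed widely, from 0 to 26 CG over the 10 of TCF4. Those of ZEB1 ran from 7 to 27, so with another entry ZEB1 would have more CG than TWIST2. Whether an island covers these bases was not tested, since the builds differ. The E-box CAGGTG, searched on both strands as CAGGTG or CACCTG, was found once upstream of ZEB1 and not in the stretches shown for the other 5 genes, and 17.5% of all entries held it. It was also present in 1 of the other 6 ZEB1 entries and in none of the other TCF4 entries. In all, 6 of the 10 genes matched the promoter table, with 21 entries, where SNAI2 was left out of the search.

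SNAI1, the zinc-finger repressor of E-cadherin and the classical inducer of EMT, had islands at the same places in 6 libraries. Its window, chromosome 20 from 48.58 to 48.63 Mb, was covered by islands over 34.8% and 58.4% of its length in Epi-CTR replicates 1 and 2 and over 86.8% in Epi-HOT replicate 1. Cover was 48.8% in Epi-HOTΔP replicate 2, and 48.8% and 84.8% in Epi-HOTΔL replicates 1 and 2. Epi-HOT replicate 2 and Epi-HOTΔP replicate 1 had no island. The same 6 libraries met at 2 places, one from 48599001 to 48607600 (8.6 kb) and one from 48616801 to 48624000 (7.2 kb), and every base of these stretches lay in an island of all 6. Only 0.540% of all bases that any library covered were shared by 6 or more libraries, and 5.62% of 24540 tiles of 50 kb had an island in 6 or more. Among tiles of chromosome 20 alone, the latter share was 10.7%.

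The first of these stretches is exactly the island of Epi-CTR replicate 1. Its false discovery rate (FDR, the adjusted p-value of the authors' caller) was 2.37e-25. It ranked 141 of 20592 islands in that library. Ranks were taken within a list. A limit of 0.001 was also applied to all lists alike, although depth is unknown and an FDR need not mean the same signal in each. The second island of Epi-CTR replicate 1 ran from 48616801 to 48625600 with an FDR of 3.19e-12. In Epi-CTR replicate 2 the islands at these places had FDRs of 0.000307 and 6.71e-05, in Epi-HOT replicate 1 0.00121 and 4.02e-06, and in Epi-HOTΔP replicate 2 0.00432 and 0.00214. The Epi-HOTΔL libraries gave 0.0254 and 0.0241 in replicate 1 and 0.00917 and 0.0403 in replicate 2, in the lower part of their lists, where the better of each pair ranked at 76.7% and 66.0% of the list. With islands limited to an FDR of 0.001, SNAI1 kept both Epi-CTR libraries and Epi-HOT replicate 1 and lost the other 3.

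Island cover at SNAI1 also rose above its surroundings. In each of the 6 libraries with an island the window was covered more densely than the 1 Mb before and the 1 Mb after it, for example 86.8% against 11.1% and 20.3% in Epi-HOT replicate 1 and 48.8% against 14% and 15.2% in Epi-HOTΔL replicate 1. The smallest step was in Epi-CTR replicate 1, with 34.8% against 16.6% and 28.5%. Of all 50 kb tiles, 2.03% lay above both flanks in 6 or more libraries, and 0.367% had a mean cover over the 8 libraries as high as SNAI1, 45.3%. In RefSeq's gene order SNAI1 lies between RNF114 and the read-through gene PEDS1-UBE2V1; over which part of which gene an island lies was not analysed here.

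**Figure D2:**
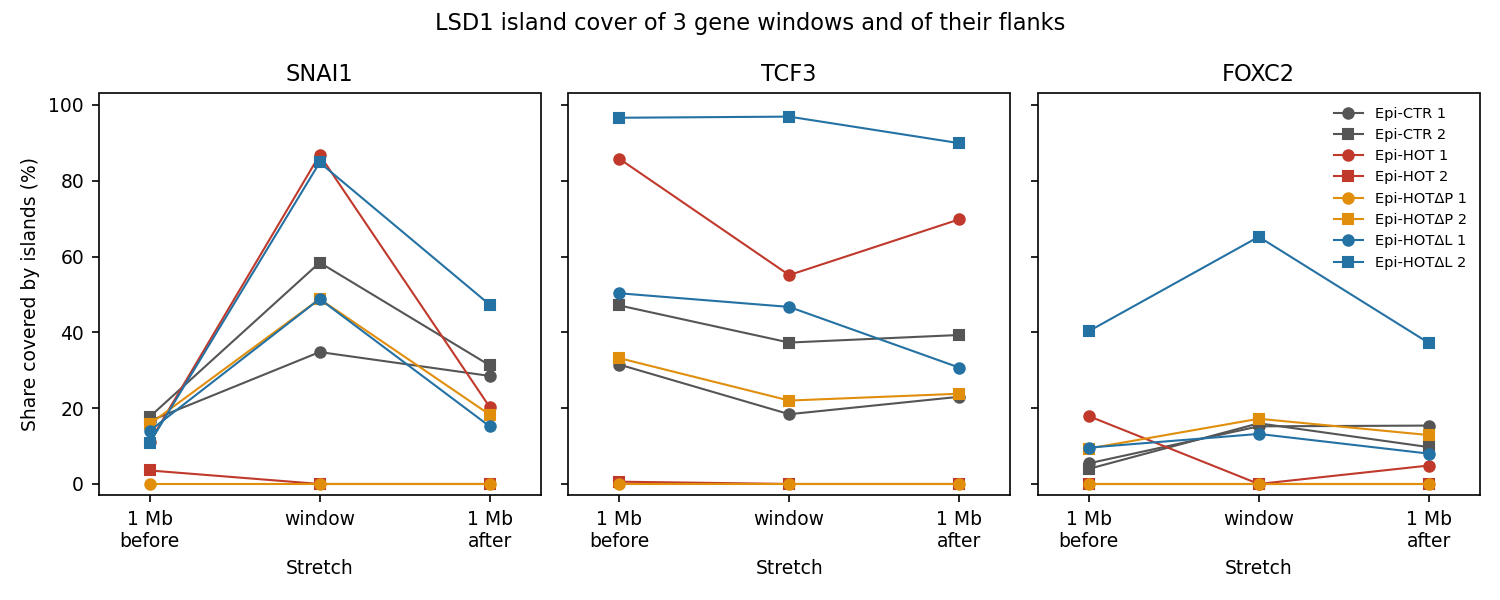
Share of bases covered by LSD1 islands, in percent, in the 1 Mb before a window, in the window and in the 1 Mb after it, for SNAI1, TCF3 and FOXC2; colours are lines, circles replicate 1 and squares replicate 2. SNAI1 forms a peak in 6 libraries, whereas the TCF3 window lies within flanks that are covered about as much, 38.8% on average against 34.6%.

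SNAI2 (Slug), the close relative of SNAI1, was nearly free of LSD1 islands. Its window, from 49.81 to 49.86 Mb of chromosome 8, met a single island in Epi-HOTΔL replicate 1, from 49808801 to 49812600 with an FDR of 0.00196, which began before the window and covered 5.2% of it. The other 7 libraries had none, and with the window shrunk by 10 kb on both sides no library had one. Of the 50 kb tiles, 92.6% had a mean cover at least as high.

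The ZEB genes encode large zinc-finger homeobox repressors that keep the mesenchymal state in place. ZEB1, from 31.58 to 31.84 Mb of chromosome 10, had 1 island in Epi-CTR replicate 2 (31600801 to 31605800, FDR 0.0156) and 1 in Epi-HOTΔL replicate 2 (31607201 to 31610200, FDR 2.81e-06), 1.4 kb apart. The second was narrow, 3 kb, and ranked 2458 of 15758 in its list. These islands shared no base, so no place in the window was called in more than 1 library. ZEB2, from 145.12 to 145.30 Mb of chromosome 2, had a single island in Epi-CTR replicate 1, from 145270601 to 145277800, with an FDR of 0.00235 in the weaker part of the list. For both genes most tiles of the same width were covered more, with 82.0% and 81.9% at or above their mean cover of 0.385% and 0.500%.

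TWIST1 and TWIST2 encode basic helix-loop-helix (bHLH) factors that act in mesoderm and dermis. TWIST1, from 19.13 to 19.18 Mb of chromosome 7, had a narrow island at 1 place in Epi-HOT replicate 1 and both Epi-HOTΔL libraries, and none in either Epi-CTR library. The 3 islands began within 600 bp of each other and shared 2.2 kb, from 19156001 to 19158200, and their FDRs were 6.22e-05 for the Epi-HOT library and 0.0107 and 0.0281 for Epi-HOTΔL replicates 1 and 2. The surroundings were almost empty: the flanks of 1 Mb were covered over 0.0625% on average over the 8 libraries. The window lay above both flanks in 3 libraries, as did 31.6% of 50 kb tiles in 3 or more. Epi-HOTΔL replicate 1 had a second island, from 19145801 to 19152400.

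TWIST2, from 239.73 to 239.85 Mb of chromosome 2, was called at 1 shared place in both Epi-CTR libraries, Epi-HOT replicate 1 and Epi-HOTΔL replicate 2. These 4 shared 2.8 kb from 239772201 to 239775000. The islands there reached FDRs of 1.15e-07 (replicate 1) and 0.000764 (replicate 2) in Epi-CTR, 0.000513 in Epi-HOT replicate 1 and 0.000233 in Epi-HOTΔL replicate 2, and all 4 stayed with a limit of 0.001. Cover of the window was 3.33% and 7.67% in Epi-CTR, 15.5% in Epi-HOT replicate 1 and 16.2% in Epi-HOTΔL replicate 2. Epi-HOT replicate 2, Epi-HOTΔL replicate 1 and both Epi-HOTΔP libraries had none. Both Epi-CTR libraries held an island at TWIST2 and neither at TWIST1, and this difference between the genes was not tested. The flanks of TWIST2, on the side of ASB1 and of HDAC4 in RefSeq's order, were covered over 8.28% on average, more than the window itself at 5.33%. The highest flank values were those of Epi-HOTΔL replicate 2, 33.8% and 40.8% against 16.2% in its window. In 2 libraries, Epi-CTR replicate 2 and Epi-HOT replicate 1, the window lay above both flanks, as did 52.8% of 120 kb tiles in 2 or more.

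PRRX1, a paired-type homeobox gene active in limb and craniofacial mesenchyme, had an island in Epi-HOT replicate 1 (170633201 to 170639600 on chromosome 1, FDR 0.00403) and at nearly the same place in Epi-HOTΔL replicate 1. They shared 5.4 kb, from 170633401 to 170638800. The second had an FDR of 0.0451, close to the limit, at 97.2% of its list, and neither passed 0.001. No library of Epi-CTR or Epi-HOTΔP had one in this window from 170.61 to 170.73 Mb. In the libraries that held them, TWIST1 and PRRX1 were alike in 7 of 8, differing in Epi-HOTΔL replicate 2.

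FOXC2, a forkhead gene of mesenchyme and lymphatic vessels, had islands in 5 libraries, with at most 4 of them sharing a base. Its window, from 86.58 to 86.63 Mb of chromosome 16, was covered over 15.2% and 16.0% in the Epi-CTR replicates, 17.2% in Epi-HOTΔP replicate 2, and 13.2% and 65.2% in the Epi-HOTΔL replicates. Both Epi-HOT libraries and Epi-HOTΔP replicate 1 had none. The island with the lowest FDR, 1.49e-11, was 1.2 kb wide, from 86588601 to 86589800 in Epi-CTR replicate 1. Of this island 800 bp, from 86588601 to 86589400, were also covered in Epi-CTR replicate 2 and in both Epi-HOTΔL libraries. The Epi-HOTΔP replicate 2 island, from 86604801 to 86613400 with an FDR of 0.00121, met only the wide island of Epi-HOTΔL replicate 2, which ran for 22.4 kb. A further place, from 86616801 to 86620600, was called in the Epi-CTR libraries alone, with FDRs of 0.0397 and 0.00479. In RefSeq's order FOXC2 overlaps the antisense gene FOXC2-AS1 and is followed by another forkhead gene, FOXL1, and to which gene an island belongs was not tested.

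**Figure D3:**
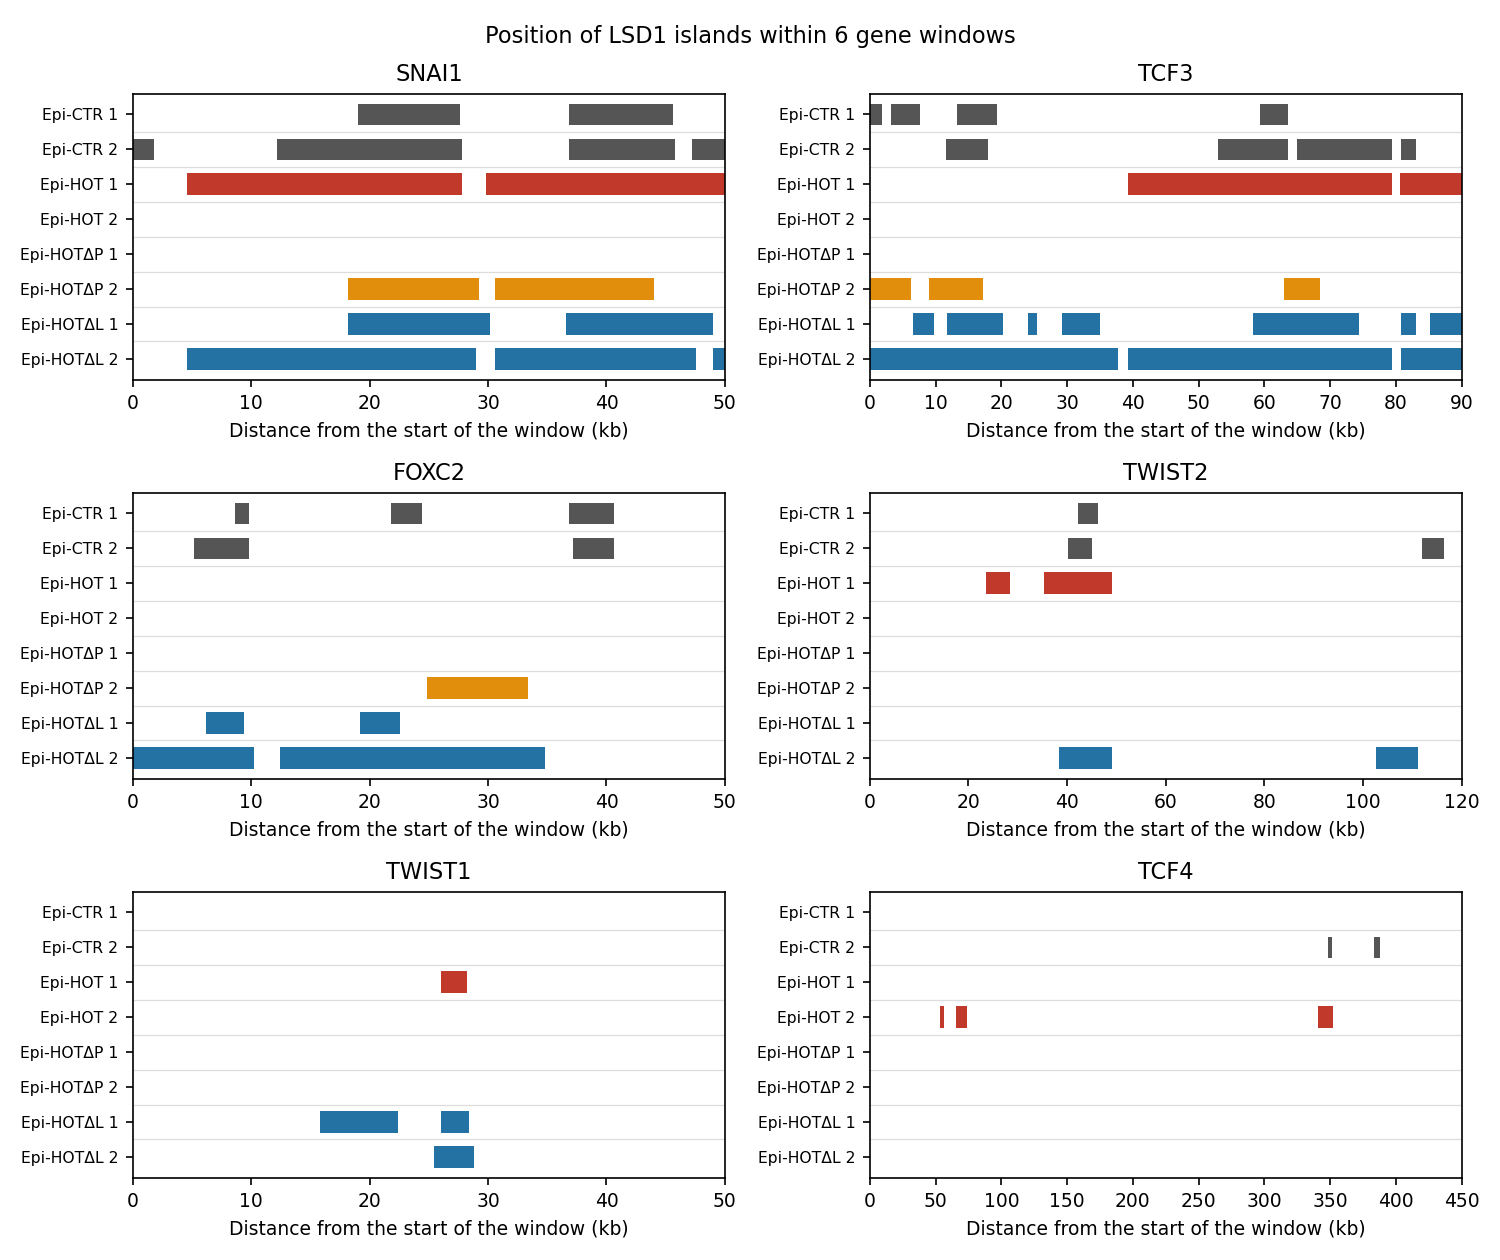
Islands in 6 gene windows; the x axis is the distance in kb from the start of the window, each row is a library and each bar an island, cut at the window's edges, with colours for lines. SNAI1 islands line up at 2 places in 6 libraries, and TWIST1 and TWIST2 islands line up at 1 place in 3 and 4 libraries. At FOXC2 the islands of 4 libraries share 0.8 kb.

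TCF3 (E2A) and TCF4 (E2-2) encode E proteins, bHLH factors that pair with tissue-specific partners and can repress E-cadherin. TCF3 had the most islands, 23, in a window of 90 kb from 1.59 to 1.68 Mb of chromosome 19. Cover was 18.4% and 37.3% in the Epi-CTR replicates, 55.1% in Epi-HOT replicate 1, 22.0% in Epi-HOTΔP replicate 2, and 46.7% and 96.9% in the Epi-HOTΔL replicates, and 0 in Epi-HOT replicate 2 and Epi-HOTΔP replicate 1. The 6 libraries met over 600 bp only, from 1653001 to 1653600. The strongest island of Epi-CTR replicate 1 in this window, from 1649401 to 1653600, had an FDR of 1.77e-24 and ranked 157 of 20592. At the same place Epi-HOTΔP replicate 2 had an FDR of 5.47e-08 (rank 181 of 8079), Epi-HOTΔL replicate 1 1.19e-05 and Epi-CTR replicate 2 3.83e-06. Epi-HOT replicate 1 and Epi-HOTΔL replicate 2 had an island there with the same bounds, from 1629201 to 1669400, with FDRs of 1.94e-05 and 8.67e-17.

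All 6 libraries still had a TCF3 island at an FDR of 0.001, and 5 of them when every list was cut to its best 1116 islands. SNAI1 then kept 2 libraries. The TCF3 window did not stand out from its surroundings, which belong to the gene-dense end of chromosome 19: it was covered more than both flanks of 1 Mb in 1 library only, Epi-HOTΔL replicate 2. On chromosome 19 alone, 35.1% of tiles of 90 kb had an island in 6 or more libraries, against 11.4% of such tiles in the genome. SNAI1 and TCF3 were held by the same 6 libraries, the only pair of the 10 windows alike in all 8. Epi-HOTΔL replicate 2 spread a single island of 96.2 kb into the TCF3 window, from 1531601 to 1627800 (FDR 7.84e-34), where Epi-HOTΔL replicate 1 had 4 separate islands inside the window.

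TCF4 differed from all other windows in being called in Epi-HOT replicate 2, a library whose list is short and held no island at the other 9. It is also the widest window: this library had an island in 24.5% of 450 kb tiles, against 7.72% of 50 kb tiles. In its window of 450 kb, from 52.87 to 53.32 Mb of chromosome 18, that library had 3 islands, from 52923401 to 52926600 (FDR 3.22e-14), from 52935601 to 52944000 (1.12e-16, rank 115 of 1778) and from 53210601 to 53222000 (0.000749). Epi-CTR replicate 2 had an island inside the last of these, from 53218001 to 53221000 (FDR 0.0273), and another from 53253201 to 53257800 (7.07e-05). The other 6 libraries had none, although a tile of this width had an island in 5 libraries at the median.

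Read by library, the number of windows with an island was lowest in the 2 shortest lists and broadly rose with list length, but not strictly. The longest list, Epi-CTR replicate 1, had an island in fewer windows than 3 shorter lists. Epi-HOTΔP replicate 2, with 8079 islands, had one in fewer windows than Epi-HOT replicate 1, with 6557. Of the 10 windows, Epi-CTR replicates 1 and 2 had an island in 5 and 6, Epi-HOT replicates 1 and 2 in 5 and 1, Epi-HOTΔP replicates 1 and 2 in 0 and 3, and both Epi-HOTΔL replicates in 6. The sum over the 10 windows of the share of equal-width tiles with an island was 6.50 and 5.58, 3.92 and 1.22, 0.679 and 3.71, and 6.05 and 5.91 in the same order. The widest gap was in Epi-CTR replicate 1, with 5 windows against 6.50. The lists held between 1116 and 20592 islands, no reads are listed, and depth is unknown, so a window without an island may be one with fewer reads. Epi-HOT replicate 2 and Epi-HOTΔP replicate 1 have the shortest lists and stand apart from the rest, and their part in the differences between lines was not tested beyond the values without them given here.

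**Figure D4:**
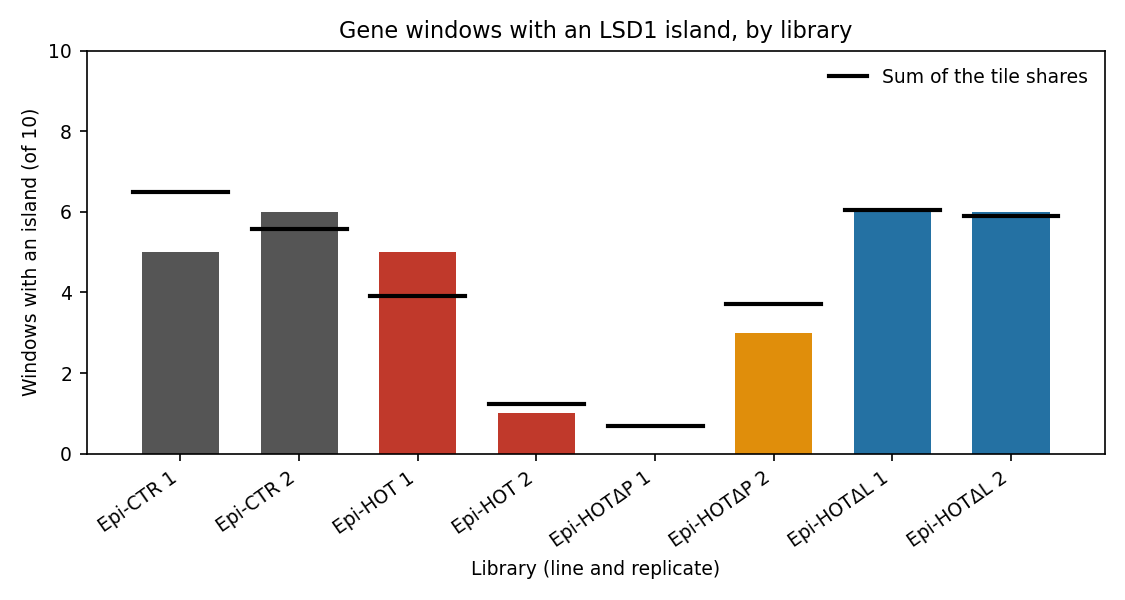
Number of the 10 gene windows with an LSD1 island in each library (bars, coloured by line), with the sum over windows of the share of equal-width genome tiles that hold an island in the same library (black lines). Bars and lines run together, from 0 windows against 0.679 in Epi-HOTΔP replicate 1 to 6 against 6.05 in Epi-HOTΔL replicate 1.

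Lines were compared by the strictest reading that lists without reads allow: a window was called where both libraries of a line had an island and neither of the other had one. With 2 libraries against 2 an exact test cannot go below p = 0.333, so no p-value is given. Between Epi-HOT and Epi-CTR, FOXC2 was called lower in Epi-HOT, with a cover of 0 against 15.6% ± 0.566 (SD, n = 2), and the other 9 windows were not called. Among 50 kb tiles, 17.3% were called in this direction and 0.192% in the other. A limit of FDR 0.001, or lists of equal length, ended the call. SNAI1, with 46.6% ± 16.7 in Epi-CTR and 43.4% ± 61.4 in Epi-HOT (SD, n = 2), and TCF3, with 27.9% ± 13.4 and 27.6% ± 39.0, were not called because the Epi-HOT replicates disagreed. Without Epi-HOT replicate 1, SNAI1, TWIST2 and TCF3 were called lower as well, making 4, where 28.7% of 50 kb tiles were called lower. Without Epi-HOT replicate 2, TWIST1 and PRRX1 were called higher in Epi-HOT, as were 7.67% of 50 kb tiles, and FOXC2 was still lower. Leaving out Epi-CTR replicate 1 or 2 added ZEB1 or ZEB2 to the lower windows, with 27.3% and 33.7% of 50 kb tiles called lower. Here and in the comparisons below, shares with libraries left out are of 50 kb tiles, also for wider windows. Such shares at the width of the wider windows were not computed.

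Between Epi-HOTΔL, without the LSD1-binding part, and Epi-HOT, FOXC2 was called higher in Epi-HOTΔL, with 39.2% ± 36.8 (SD, n = 2) against 0. Among 50 kb tiles 16.7% were called this way and 0.424% the other way. The stricter FDR limit and the lists of equal length ended this call too. The comparison shares the Epi-HOT libraries with the one above, so FOXC2 is not an independent second case. Without Epi-HOT replicate 1, SNAI1, TWIST1 and TCF3 joined it and TCF4 was called lower, where 29% of tiles were called higher and 3.8% lower. Leaving out Epi-HOTΔL replicate 1 or 2 added ZEB1 or SNAI2, with 31.4% and 32% of tiles called higher.

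Between Epi-HOTΔP, without the PRC2-binding part, and Epi-HOT, none of the 10 windows was called, where 0.729% of 50 kb tiles were called higher and 1.17% lower in Epi-HOTΔP. This count rests on the shortest lists: without Epi-HOTΔP replicate 1, FOXC2 was called higher, as were 17.8% of tiles. Without Epi-HOT replicate 2, TWIST1, TWIST2 and PRRX1 were called lower, as were 17.8% of tiles. Without both, all 4 were called in those directions, with 18.8% of tiles higher and 18.3% lower. Without Epi-HOT replicate 1, TCF4 was called lower, as were 5.48% of tiles.

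The deletion lines were also set against Epi-CTR. TWIST1 was called higher in Epi-HOTΔL, with a cover of 12.4% ± 7.92 (SD, n = 2) against 0, and 6.02% of 50 kb tiles were called in this direction and 6.12% in the other. The islands behind it had FDRs of 0.0107 and 0.0281, and both the limit of 0.001 and equal lists ended the call. At that limit SNAI1 was called lower in Epi-HOTΔL, and the share of tiles called so at this limit was not computed. Without the limit both libraries of both lines had SNAI1 islands. Mean cover of SNAI1 was then 66.8% ± 25.5 in Epi-HOTΔL and 46.6% ± 16.7 in Epi-CTR (SD, n = 2). Without Epi-HOTΔL replicate 2, SNAI2 and PRRX1 were higher in Epi-HOTΔL, like TWIST1, and TWIST2 lower, where 15% of 50 kb tiles were higher and 11.6% lower. Without Epi-CTR replicate 1 or 2, TCF4 or ZEB2 was lower, as were 11.7% and 15.3% of 50 kb tiles. TWIST2 was called lower in Epi-HOTΔP, with 0 against 5.50% ± 3.06 (SD, n = 2), as were 20.3% of tiles of its width, 120 kb, and 17.2% of 50 kb tiles, while 0.379% were called higher. This call held at an FDR of 0.001, where SNAI1 joined it, and ended with equal lists. The share of tiles called lower at this limit was not computed. Without Epi-HOTΔP replicate 2, SNAI1, FOXC2 and TCF3 were lower as well, where 30.8% of 50 kb tiles were. Without Epi-CTR replicate 1, ZEB1 and TCF4 were added, and without Epi-CTR replicate 2, ZEB2, with 28.2% and 33% of 50 kb tiles called lower.

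The lines were last grouped by whether their HOTAIR carries the LSD1-binding part. Epi-HOT and Epi-HOTΔP, the 4 libraries with it, had lower mean cover than the 4 of Epi-CTR and Epi-HOTΔL at 8 of the 10 windows, as at 79.4% of 50 kb tiles, so the count is near the background. At none did the 4 libraries of one side all lie below those of the other, where 4.00% of 50 kb tiles had all 4 with it below all 4 without it. The difference with the smallest p was at FOXC2, 4.30% ± 8.60 against 27.4% ± 25.2 (SD, n = 4; exact two-sided permutation p = 0.114, adjusted 0.895 over all tiles of its width). TCF3 had 19.3% ± 26.0 against 49.8% ± 33.5 (SD, n = 4; exact permutation p = 0.200, adjusted 0.911), with islands in 2 of 4 and 4 of 4 libraries. SNAI1 had 33.9% ± 42.1 against 56.7% ± 21.1 (SD, n = 4; exact permutation p = 0.400, adjusted 1). Without the 2 shortest lists the SNAI1 difference turned, to 11.1 percentage points higher where the part is present (exact permutation p = 0.600, where 15 regroupings allow no p below 0.0667). The smallest p that 70 regroupings allow is 0.0286, and 2 cultures of the same line do not stand for 2 lines.

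Over all windows, a larger share of island bases was common to several libraries than in the genome as a whole, a description with no test, and SNAI1 and TCF3 made up the upper end. Of the 264.4 kb covered by any library, 36.5% lay in islands of 3 or more libraries and 6.20% in islands of 6 or more, against 15.2% and 0.540% of the bases covered in the genome. All of the latter 16.4 kb lay at SNAI1, but for 600 bp at TCF3. When islands of the 8 lists were merged where they touch, the windows met 23 regions, of which 11 (47.8%) were held by 2 or more libraries, against 40.3% of 41795 regions in all. Of the 23 regions 3 (13%) were held by 6 or more libraries, 1 at SNAI1 and 2 at TCF3, against 1.60% of all. These 3 were 77.2, 127.8 and 40.2 kb wide. A wide region meets a window more easily and can gather more libraries, so these shares of regions are not like for like. A merged region can reach past the window, as at TCF3, where one region was also held by Epi-HOT replicate 2 outside it.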

How the data were processed

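LSD1 ChIP-seq of 4 lines with 2 cultures each was used as 8 lists, 1 for each IP library; a list was matched to its IP library by the name that the library's labels give; the Input of the same culture carries the same name. Positions are on hg19, and the tools listed are SICER 1.1 and Bowtie2 2.1.0, with no role stated, per the submitters' processing notes. Per the labels, the list names carry a window of 200 bp, a gap of 1000 bp, an FDR of 0.05 and a further filter that is not described. The value deposited by the authors for each island is this FDR, an adjusted p-value (highest 0.0500); reads and depth are not listed. Starts count from 0 in the files and are printed here from 1.

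Covered bases of each window, each tile and each flank were computed from the islands. Tiles are consecutive stretches of the window's width that hold an island in any list. Covered shares of the 2 arms were compared by an exact permutation test, Benjamini-Hochberg adjusted over all tiles of the width. Calls were checked on simulated lists with planted islands, and the test on random normal values, unlike the covered shares. These checks concern the code only. All 10 windows are named; islands printed with FDR are those of the library with the lowest FDR and those shared by 3 or more libraries, and a few others, at ZEB1, PRRX1, FOXC2, TWIST1 and TCF4, were added after their values were seen. The windows and tests were chosen with earlier results of these data known, and flanks, promoter features and shared bases were added after seeing the data. RefSeq tables (GRCh38.p14) served for names, order and promoter sequence only. Alternatives were a limit of FDR 0.001, the island's midpoint in the window, lists of 1116 islands each, windows shrunk by 10 kb, each library left out, a replicate block and, added later, both shortest lists left out. Python 3.11.15, numpy 2.4.6, pandas 2.3.3 and matplotlib 3.10.9 were used.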

Additional observations from a re-analysis of the deposited data

How the results depend on the processing

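Counting an island only where its midpoint lies in the window changed no count of windows or calls. With islands at an FDR of 0.001 or less, the mean number of windows with an island was 4 in Epi-CTR and 2.5 in Epi-HOTΔL, and with lists of 1116 islands it was 1 in both. Shrinking the windows gave 5.5 in Epi-HOTΔL. The calls of FOXC2 in Epi-HOT against Epi-CTR and in Epi-HOTΔL against Epi-HOT, and of TWIST1 in Epi-HOTΔL against Epi-CTR, numbered 0 under the FDR limit and 0 with equal lists. TWIST2 in Epi-HOTΔP against Epi-CTR became 2 calls under the limit and 0 with equal lists, and Epi-HOTΔL against Epi-CTR had 1 lower call under the limit. Shares of tiles called under the limit or with equal lists were not computed. Without both shortest lists, an alternative chosen after seeing the data, Epi-HOT had 2 windows higher than Epi-CTR, and Epi-HOTΔP had 1 higher and 3 lower than Epi-HOT. Shorter lists hold fewer islands by construction; beyond that the cause was not tested.

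Leaving out each library in turn, the windows with an island ranged from 5 to 6 in Epi-CTR, 1 to 5 in Epi-HOT, 0 to 3 in Epi-HOTΔP and stayed at 6 in Epi-HOTΔL. Calls ranged from 0 to 2 higher and 1 to 4 lower in Epi-HOT against Epi-CTR, from 1 to 4 higher and 0 to 1 lower in Epi-HOTΔL against Epi-HOT, and from 0 to 1 higher and 0 to 3 lower in Epi-HOTΔP against Epi-HOT. Against Epi-CTR they ranged from 1 to 3 higher and 0 to 1 lower in Epi-HOTΔL and from 1 to 4 lower in Epi-HOTΔP, with 0 higher throughout. A line left with 1 library is called on that library alone.

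The difference between lines with and without the LSD1-binding part, in percentage points of cover, passed an exact permutation p of 0.05 at 0 windows under the alternatives that allow it (smallest possible p 0.0286). The replicate block and the fit without both shortest lists cannot pass it, with smallest possible p of 0.0556 and 0.0667, and say nothing about stability. Its sign turned at TWIST1 to 1.1 under the FDR limit and with equal lists, and at SNAI1 to 1.4 with equal lists and 11.1 without both shortest lists. Without these lists it also turned at TWIST2 to 0.958 and at TCF4 to -0.422. Leaving out single libraries gave -6.79 to 0.208 at TWIST2, -1.12 to 1.33 at PRRX1 and -0.422 to 1.28 at TCF4. TCF3 kept its sign throughout and FOXC2 wherever islands were left (none with equal lists), with exact permutation p from 0.0857 to 0.8 and from 0.0857 to 0.533. With the replicate block (36 regroupings, 0 windows by construction) FOXC2 had an exact permutation p of 0.111. Whether libraries with the same replicate number belong together was not settled. Between the 6 pairs of lines, the differences of replicate 1 from replicate 2 over 24540 tiles correlated from -0.41 to 0.39. The correlation was above 0.1 in 1 pair. These differences also carry the unequal list lengths within lines, so the correlations cannot decide the question. The cause of the sign changes was not tested, and depth is unknown.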
